A study of Mus musculus with 6 samples.

Results

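DNA methylation at 10 genes of the oligodendrocyte lineage and of myelin was followed through 6 lists of methylated peaks from mouse hippocampus. The genes were chosen by name: the transcription factor genes Olig1, Olig2 and Sox10, the progenitor genes Pdgfra and Cspg4, and the myelin genes Mbp, Mobp, Cnp, Mag and Mog. Of the 10, 8 had at least 1 listed peak, among 13142 genes with a listed peak in any library. Their 102 peaks merged to 35 regions of the 48853 regions in the series, where peaks that shared at least 1 bp formed a region. Of all coding genes of the reference, 59.6% had a listed peak.

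The ethanol group was 3 male C57BL/6 pups that received subcutaneous ethanol, 2.5 g/kg in 0.15 M NaCl, 2 times a day on postnatal days 4 and 7. The saline group was 3 male C57BL/6 pups injected with 0.15 M saline on the same schedule. All hippocampi were taken at postnatal day 21, and the comparison asks whether methylation still differed at that age after early ethanol, a model of heavy alcohol exposure of the developing brain. Per the labels the pups were matched littermates; litters are not named, and each animal was treated as an independent replicate. Methylation was measured by MeDIP-seq, which enriches DNA fragments with an antibody that binds 5-methylcytosine before sequencing and calls stretches that gather many fragments as peaks. The DNA comes from whole hippocampus and a peak averages over all its cell types, so a change in methylation and a change in the share of a cell type cannot be told apart, and peak lists hold no marker that could check the tissue.

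Oligodendrocytes wrap axons in myelin, and in rodents they form largely in the weeks after birth from progenitors that carry the PDGF receptor alpha and the NG2 proteoglycan. Olig2 and Sox10 specify and maintain the lineage, and genes of myelin proteins are switched on as the cells mature. Methylation of CpG dinucleotides at promoters is generally associated with silencing, while methylation within gene bodies is common at active genes too.

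The sequences below show 3 of the 35 regions, those of a promoter and of regions held by every library, as 200 bases around the median summit of each region, on the plus strand of mm10, read 5' to 3', with each CpG in capitals. The first is the promoter peak of Cspg4 (chr9:56864039-56864238), the second the peak in a coding exon of Cspg4 held by every library (chr9:56887044-56887243), and the third the peak upstream of Olig1 held by every library (chr16:91248720-91248919).
Cspg4 promoter: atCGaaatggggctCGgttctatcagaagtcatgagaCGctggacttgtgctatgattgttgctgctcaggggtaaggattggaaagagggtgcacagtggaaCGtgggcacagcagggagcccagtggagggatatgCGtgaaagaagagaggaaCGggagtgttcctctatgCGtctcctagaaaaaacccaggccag
Cspg4 exon: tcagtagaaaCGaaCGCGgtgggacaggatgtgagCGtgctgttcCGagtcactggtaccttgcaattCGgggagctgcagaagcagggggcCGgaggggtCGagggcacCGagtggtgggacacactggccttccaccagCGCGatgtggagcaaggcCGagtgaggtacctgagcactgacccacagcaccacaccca
Olig1 upstream: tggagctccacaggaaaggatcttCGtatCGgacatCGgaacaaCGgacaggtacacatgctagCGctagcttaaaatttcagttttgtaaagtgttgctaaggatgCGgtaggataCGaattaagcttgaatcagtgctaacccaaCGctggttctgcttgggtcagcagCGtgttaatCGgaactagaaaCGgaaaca
These windows held 7, 12 and 11 CpG in 200 bases around the summit. They do not stand for all 35 regions, which over their whole length had a median of 1.83 CpG per 100 bp and a range of 0 to 4.88.

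Most listed peaks of these genes lay away from promoters and outside the listed transcripts. Of the 102 peaks, 86.3% were classed as intergenic, 8.82% as gene body and 4.90% as promoter, a class given close to a transcription start. Over all 148832 peaks of the series the shares were 72.7%, 24.2% and 3.05%. A listed peak in all 6 libraries was found at 4 of the genes (Mobp, Olig1, Pdgfra and Cspg4), against 50.2% of all genes with a listed peak. A promoter peak in at least 1 library was found at 2, against 11.2%. The median distance of a summit to the listed start was 24525.5 bp for these genes and 55679 bp for all peaks.

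Intergenic is a statement about the transcript that was listed, and the GENCODE M21 annotation placed some of these regions inside genes. Of the 30 regions with intergenic peaks alone, 3 lay inside the gene they were listed to, 16 inside another gene and 11 in no gene. The 3 were the region of Cnp, a region in an intron of the long Mbp gene and a region in an untranslated exon of Mobp. The reverse also occurred: a region in a coding exon of Cspg4 (chromosome 9, 56897802 to 56898983) had peaks in all 6 libraries but was listed to the neighbouring gene Snx33, and is thus not among the 35.

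**Figure D1:**
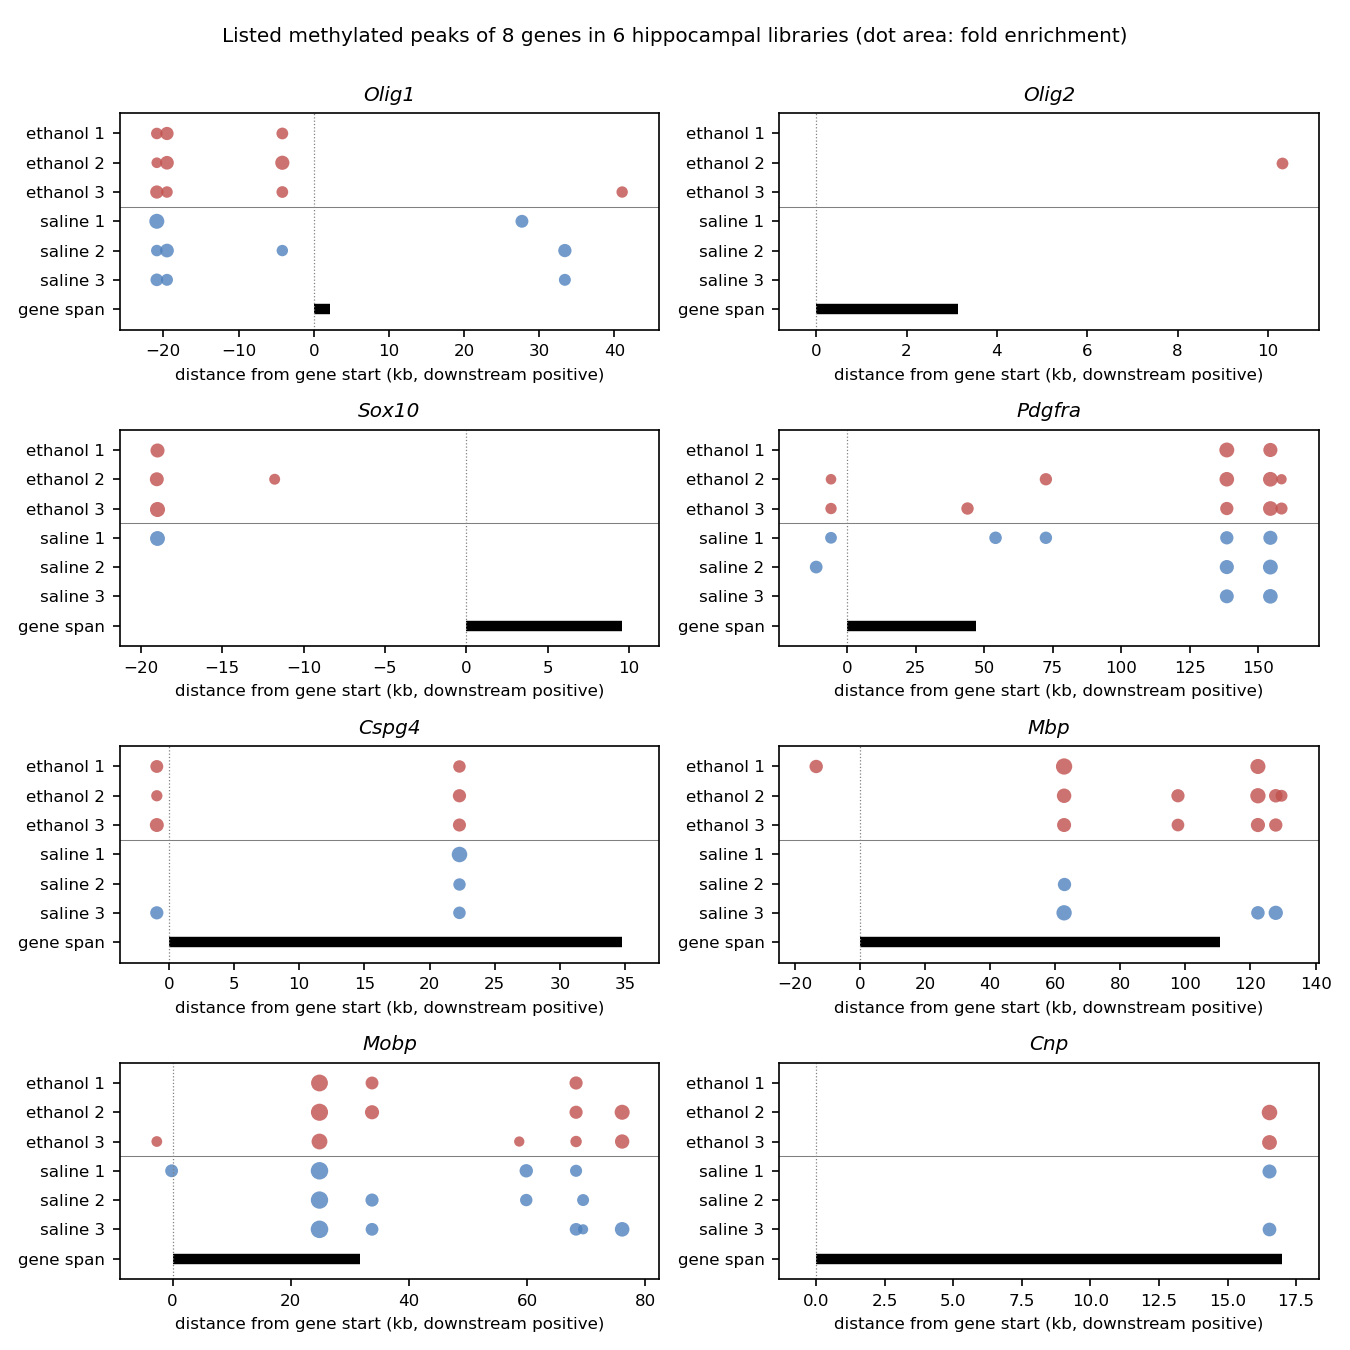
Position of each listed peak along 8 genes (x axis, kb from the start of the reference gene, downstream positive) in the 3 ethanol libraries above and the 3 saline libraries below. Dot area follows the authors' fold enrichment and the black bar is the gene span. Vertical columns of 6 dots are regions held by every library, such as that of Cspg4 at 21999 to 22093 bp and that of Mobp at 24480 to 24577 bp.

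Olig1 encodes a transcription factor needed for oligodendrocyte maturation, and it lies beside Olig2. Its own short gene body and promoter had no peak in any library, but a pair of regions between the genes was methylated in nearly all animals. The first region (chromosome 16, 91248543 to 91249250), whose summits lay -20972 to -20789 bp from the Olig1 start and which begins 19866 bp beyond the end of Olig2, had a peak in all 6 libraries. Its fold enrichment, the authors' linear ratio of signal over expected signal, was 5.14, 4.40 and 6.77 in ethanol libraries 1 to 3 and 8.65, 5.12 and 6.15 in saline libraries 1 to 3. The second (91249792 to 91250708) had a fold of 6.74, 7.21 and 5.12 in the ethanol libraries and of 7.24 and 5.50 in saline libraries 2 and 3. Saline library 1 had the highest fold in the first region and no peak in the second. Its count of tags at the summit of the first region, 77, was the lowest of the 6 libraries. Both regions were rich in CpG, with 4.24 and 4.14 CpG per 100 bp, and were nearly all soft-masked, repeat-derived sequence (100% and 99.3%).

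A different kind of region lay closer to the Olig1 start. Its summits were at -4424 to -4079 bp (chromosome 16, 91265105 to 91266080) and it held 0.102 CpG per 100 bp. It was 88.0% soft-masked, and 41.4% of its bases lay in the motifs ACACAC or AGAGAG on either strand. It had a fold of 5.35, 7.74 and 5.31 in the 3 ethanol libraries and of 5.0 in saline library 2. The other saline libraries had no peak there, and since the lists give no value for a region without a call, an absent peak says only that the calling threshold was missed. The -log10 q was 11.7, 18.8 and 11.3 in the ethanol libraries and 8.85 in saline library 2, where the smallest values in the lists lay between 5.001 and 5.228. Within their own lists, the peaks of ethanol libraries 1 and 3 stood at percentile 6.49 and 6.73 of -log10 q and that of saline library 2 at 1.81, all near the bottom, while that of ethanol library 2 stood at 36.7. Whether the peaks of this region reflect 5-methylcytosine was not tested.

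Olig2, the neighbouring factor that specifies the lineage, had 1 listed peak, 10419 bp downstream of its start in ethanol library 2, with a fold of 5.34. Its RefSeq promoter window, 250 bases before to 50 after the start, held 8.33 CpG per 100 bp and overlapped no peak in any library. Sox10, which activates myelin genes together with other factors, had no peak in its gene body or promoter either. A region upstream of it (chromosome 15, 79183211 to 79183816; summits at -19125 to -19003 bp) lay in an intron of the noncoding gene Gm10863. The fold there was 7.59, 7.49 and 8.75 in the ethanol libraries and 8.53 in saline library 1, and saline libraries 2 and 3 had no peak. The Sox10 region nearest to the start, at -11815 bp (79176030 to 79176509), had a single weak peak in ethanol library 2, with a fold of 4.62.

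Pdgfra encodes the receptor through which PDGF drives progenitor division, and Cspg4 encodes the NG2 proteoglycan of the same cells. Pdgfra had 22 peaks, of which 1 was in its gene body, in an untranslated exon in ethanol library 3. The strongest regions listed to Pdgfra lay far downstream and in no annotated gene. At 133584 to 133680 bp from the listed start (chromosome 5, 75289467 to 75290172), the fold was 8.57, 8.19 and 6.77 in ethanol libraries and 6.78, 7.69 and 7.50 in saline libraries. At 149540 to 149569 bp (75305280 to 75306139) it was 7.69, 8.30 and 8.32 in ethanol libraries and 7.65, 8.51 and 8.22 in saline libraries. Every library had a peak in both, and the groups overlapped in each. The second held 4.88 CpG per 100 bp, the most of the 35 regions. It was 97.0% soft-masked, and the first was 11.9% soft-masked.

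The listed region nearest to the Pdgfra start (75145100 to 75145804; summits at -7011 to -6583 bp) had weak peaks, with a fold of 4.31 and 4.97 in ethanol libraries 2 and 3 and of 5.32 in saline library 1. A region 153496 to 153666 bp downstream had peaks in ethanol libraries 2 and 3 alone, with a fold of 4.12 and 5.58. It was 96.0% soft-masked.

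Cspg4 was methylated in a coding exon in every animal. That region (56886857 to 56887931) held 3.44 CpG per 100 bp and was 2.88% repeat-derived. Its fold was 6.01, 6.76 and 6.57 in ethanol libraries and 9.28, 5.90 and 6.06 in saline libraries, so that saline library 1 stood above the other 5. Cspg4 also had the more frequent promoter peak of the 2 genes with any. Its summits lay at -991 to -962 bp (56863894 to 56864481), in an intron of Odf3l1, a gene on the opposite strand. The promoter peak had a fold of 6.40, 4.89 and 7.51 in the 3 ethanol libraries and of 6.73 in saline library 3, and was missing from saline libraries 1 and 2. The RefSeq promoter window at the start itself, with 5.67 CpG per 100 bp, overlapped no peak.

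Among the myelin genes, Mobp, which encodes a small basic myelin protein, had the strongest peak. Its region 24480 to 24577 bp downstream of the start (chromosome 9, 120173950 to 120175252) had a fold of 10.9, 11.3 and 9.62 in ethanol libraries and of 11.7, 11.6 and 11.8 in saline libraries. It held 3.53 CpG per 100 bp. All 6 peaks were among the strongest of their lists, with a -log10 q above that of 92.6% of peaks in ethanol library 3, where it ranked lowest, and of 97.3% in ethanol library 2. The other 8 Mobp regions were held by 1 to 5 libraries, and 6 of them lay in introns of the noncoding gene Gm38642.

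Mobp also had the only other promoter peak, at -217 bp in saline library 1 (120149336 to 120149818), with a fold of 6.34. It overlapped the RefSeq promoter window, which has 1.67 CpG per 100 bp. No ethanol library had a peak there.

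Mbp encodes myelin basic protein, a main structural protein of compact myelin, and shares its locus with the longer golli transcripts. It had 6 regions and no promoter peak. The region nearest to a listed start, at -13358 bp (chromosome 18, 82461434 to 82461985), lay in no gene and had a peak in ethanol library 1 alone, with a fold of 6.90. The most frequent region (82537504 to 82538188) was missing from saline library 1 alone. It held 0.876 CpG per 100 bp, was 61.0% soft-masked and had 20.4% of its bases in the motifs ACACAC or AGAGAG. Its summits lay -16641 to -16531 bp from the listed start, in an intron of the long gene, and its fold was 10.2, 8.06 and 7.59 in ethanol libraries and 6.82 and 9.03 in saline libraries 2 and 3. A region 42773 to 42833 bp downstream (82597091 to 82597671), in an untranslated exon of Zfp236, had a fold of 8.76, 9.01 and 7.73 in the ethanol libraries and of 7.01 in saline library 3. An intronic region (82572520 to 82573119) had peaks in ethanol libraries 2 and 3 alone, with a fold of 6.74 and 6.22. Saline library 1, which had the shortest list at 18922 peaks, had no peak listed to Mbp at all.

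Cnp, whose product is an enzyme abundant in non-compact myelin, had 1 region, in an exon near its end and also within Dnajc7 on the opposite strand (chromosome 11, 100591094 to 100591719). The fold there was 9.27 and 8.44 in ethanol libraries 2 and 3 and 7.59 and 7.24 in saline libraries 1 and 3. The Cnp promoter window, with 5.67 CpG per 100 bp, overlapped no peak.

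Mag and Mog encode adhesion and surface proteins of myelin and had no listed peak in any library. By position, too, no summit lay inside either gene or within 2000 bp before its start. The peak nearest to Mag was 12787 bp away and was listed to Hamp2, and that nearest to Mog was 39434 bp away, in a region held by all 6 libraries and listed to 2410137M14Rik. Their promoter windows held 1.00 to 2.00 CpG per 100 bp (Mag, 3 starts) and 1.00 CpG per 100 bp (Mog).

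The number of peaks of these genes was higher in ethanol libraries as a plain count and about equal once list length was taken into account. Ethanol libraries 1 to 3 held 14, 23 and 22 of these peaks, and saline libraries 1 to 3 held 14, 13 and 16. The ethanol libraries averaged 19.7 ± 4.93 and the saline libraries 14.3 ± 1.53 of them (SD, n = 3 each), a 1.37-fold difference, and ethanol library 1 lay within the saline range. The lists themselves were 1.39-fold longer in ethanol, at 28810.3 ± 5893 peaks in ethanol and 20800.3 ± 1891 in saline libraries. They held 23141, 34904 and 28386 peaks in ethanol libraries 1 to 3 and 18922, 22703 and 20776 in saline libraries 1 to 3. Every ethanol list was thus longer than every saline list. The lowest background pileup implied by a list, computed from pileup and fold with a pseudocount of 1, was 2.16, 2.33 and 2.34 in ethanol and 1.85, 2.65 and 2.02 in saline libraries; its part in the list lengths was not tested. Per 10000 peaks of a list, ethanol libraries held 6.05, 6.59 and 7.75 and saline libraries 7.40, 5.73 and 7.70 peaks of these genes, and the groups overlapped. Without ethanol library 1 the difference in the plain count was 8.17 peaks in place of 5.33.

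**Figure D2:**
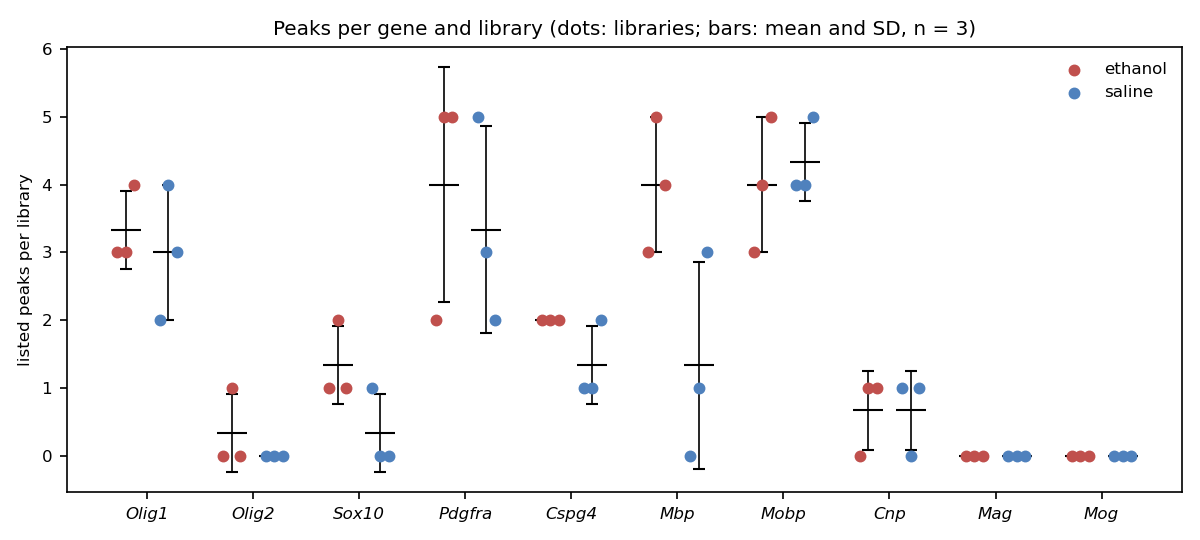
Listed peaks per library (y axis) for each of the 10 genes (x axis), ethanol libraries left and saline libraries right of each tick, with the mean and SD of 3 libraries as bars. The groups overlap for each gene, and Mbp has the widest gap between means, 4.00 in ethanol and 1.33 in saline.

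Gene by gene, no member separated the groups. Mbp came nearest, with 3, 5 and 4 peaks in ethanol libraries and 0, 1 and 3 in saline libraries, a difference of 2.67 (exact permutation p = 0.2, two-sided). The Mbp difference was 1.67 with lists of equal length and 1.86 scaled to the mean list length (exact permutation p = 0.4 in each), and 1.0 with peaks assigned by position (exact permutation p = 0.3). Without ethanol library 1 or without saline library 3 the groups no longer overlapped for Mbp. The same held without saline library 3 for Cspg4, and without saline library 1 for Sox10. The share of all genes with groups apart in these settings was not counted. It cannot be lower than with all 6 libraries, since leaving out a library can only remove overlap. Sox10 had 1, 2 and 1 peaks in ethanol and 1, 0 and 0 in saline libraries (exact permutation p = 0.3), and Cspg4 had 2, 2 and 2 against 1, 1 and 2 (exact permutation p = 0.4). Pdgfra had 2, 5 and 5 peaks in ethanol and 5, 3 and 2 in saline libraries, Olig1 had 3, 3 and 4 against 2, 4 and 3, and Mobp had 3, 4 and 5 against 4, 4 and 5 (exact permutation p = 1 in each). The test was run on all 13142 genes with a peak, and after Benjamini-Hochberg adjustment over all of them each of these exact permutation p-values was 1. With 3 against 3 libraries p cannot go below 0.1, so 0 genes had an unadjusted p under 0.05.

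As background, 5.12% of all genes with a peak had more peaks in every ethanol than in every saline library and 0.0989% had fewer. Of the 8 genes with a peak here, 0 did either. Per 10000 peaks of the list, Mobp had 1.30, 1.15 and 1.76 peaks in ethanol and 2.11, 1.7619 and 2.41 in saline libraries, which put every ethanol library below every saline library, the nearest values being 1.7614 in ethanol and 1.7619 in saline. Every ethanol list was longer than every saline list, so on that scale an equal count gives a lower ethanol value. On that scale 15.5% of all genes were lower in every ethanol library and 3.03% higher. Mobp had an exact permutation p of 0.1, adjusted 0.541.

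No region of these genes was found in all animals of one treatment and none of the other. Of the 35 regions, 0 had a peak in 3 ethanol and 0 saline libraries, where 1.49% of all regions did, and 0 had the opposite pattern, where 0.108% did. Peaks in all 3 ethanol libraries and a single saline library were found in 4 regions: the Cspg4 promoter, the region of Olig1 at -4424 to -4079 bp, the region of Mbp in Zfp236 and the region upstream of Sox10. Of all regions 3.44% had this pattern and 0.534% the reverse, which 0 of the 35 had. The lone saline library was number 3 for Cspg4 and Mbp, number 2 for Olig1 and number 1 for Sox10. Leaving out a saline library thus brought 1 or 2 of the 4 into the first pattern, an outcome fixed by how the 4 were picked. The share of all regions brought into the first pattern in this way was not counted. These 4 were singled out after their values were seen.

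**Figure D3:**
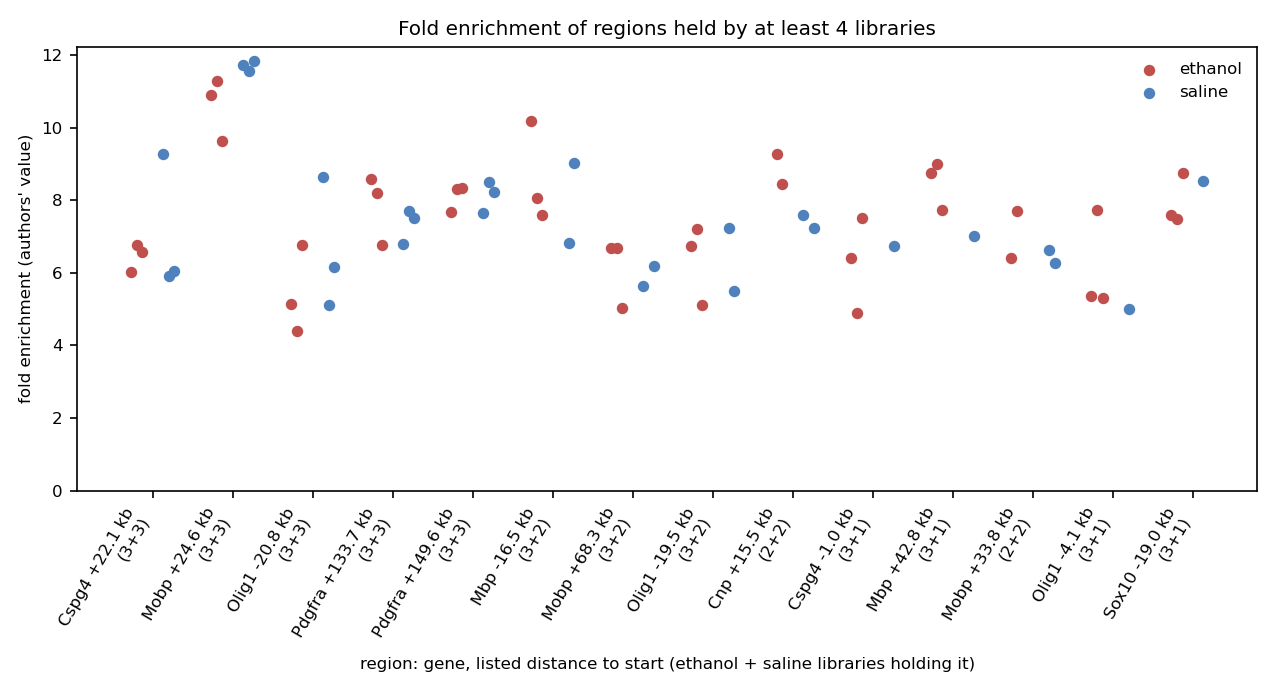
Fold enrichment (y axis, the authors' value) in each library for the 14 regions held by at least 4 libraries, ordered by how many held them; labels give the gene, the listed distance of the farthest downstream summit and the number of ethanol plus saline libraries with a peak. In the regions held by all 6, the groups overlap except at Mobp. There the ethanol libraries are at 10.9, 11.3 and 9.62 and the saline libraries at 11.7, 11.6 and 11.8. The share of all shared regions with groups apart by fold was not counted.

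In the 5 regions held by every library, the strength of the signal could be compared by rank. The summit pileup, a count of tags that the authors did not scale to depth, was ranked within each library over the 10276 regions held by all 6, a set that is the same for each. The Mobp region stood at percentile 89.9, 90.0 and 80.2 in ethanol libraries and at 92.7, 91.9 and 92.1 in saline libraries. All ethanol libraries were below all saline libraries, a mean difference of -5.50 percentile points (exact permutation p = 0.1, adjusted over 10276 regions 0.947). Of all shared regions 5.08% were lower in every ethanol library and 5.22% higher. Ethanol library 3 made most of the difference, which was -2.16 points without it. Ranked by fold enrichment in place of pileup, the Mobp difference was -15.1 points (exact permutation p = 0.1, not adjusted). The share of shared regions with groups apart by rank of fold was not counted.

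The other shared regions overlapped between treatments. The Pdgfra region at 133584 to 133680 bp stood at percentile 59.8, 54.9 and 47.1 in ethanol and 30.4, 46.6 and 51.2 in saline libraries (exact permutation p = 0.2). That at 149540 to 149569 bp stood at 88.0498, 88.0304 and 88.6 in ethanol and 86.2, 92.4 and 78.4 in saline libraries (exact permutation p = 0.7). The Cspg4 exon stood at 69.5, 62.4 and 72.2 in ethanol and 82.7, 63.8 and 68.6 in saline libraries (exact permutation p = 0.7). The Olig1 region stood at 86.7, 66.1 and 85.3 in ethanol and 79.4, 80.6 and 79.0 in saline libraries (exact permutation p = 1). Adjusted over all shared regions, each of these exact permutation p-values was 0.947 or more. By rank of fold the mean difference, ethanol minus saline, was -13.9 points at Cspg4, -14.4 at Olig1, 4.79 at the nearer Pdgfra region and -6.35 at the farther one, against -3.67, -0.285, 11.2 and 2.53 by rank of pileup. None of these 4 fold ranks had an exact permutation p below 0.5.

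Regions held by every library had the highest median CpG content, with overlap between the classes. The 5 shared regions had a median of 3.53 CpG per 100 bp, with a range of 2.69 to 4.88, and the 12 regions held by a single library had a median of 1.75, with a range of 0 to 4.17. Over the whole series the medians were 3.46 and 1.73. Of the 12 regions of a single library, 8 were in an ethanol and 4 in a saline library.

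Regions poor in CpG tended to hold short repeats of CA or GA. The 6-base motifs ACACAC and AGAGAG were searched on both strands (as GTGTGT and CTCTCT on the other), with overlapping matches counted once per base. Of the 8 regions with under 1 CpG per 100 bp, 7 had 10% or more of their bases in these motifs, and 0 of the 5 regions with 4 or more CpG per 100 bp did. Over all regions of the series the shares were 66.6% and 2.30%. The motifs covered the most bases, 49.6%, at the Mbp region of ethanol library 2 in an intron of Zfp236 (82604393 to 82604872). The exception with under 1 CpG per 100 bp was the Pdgfra region nearest to the start, with 0.851%. Whether peaks in regions so poor in CpG reflect 5-methylcytosine was not tested.

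**Figure D4:**
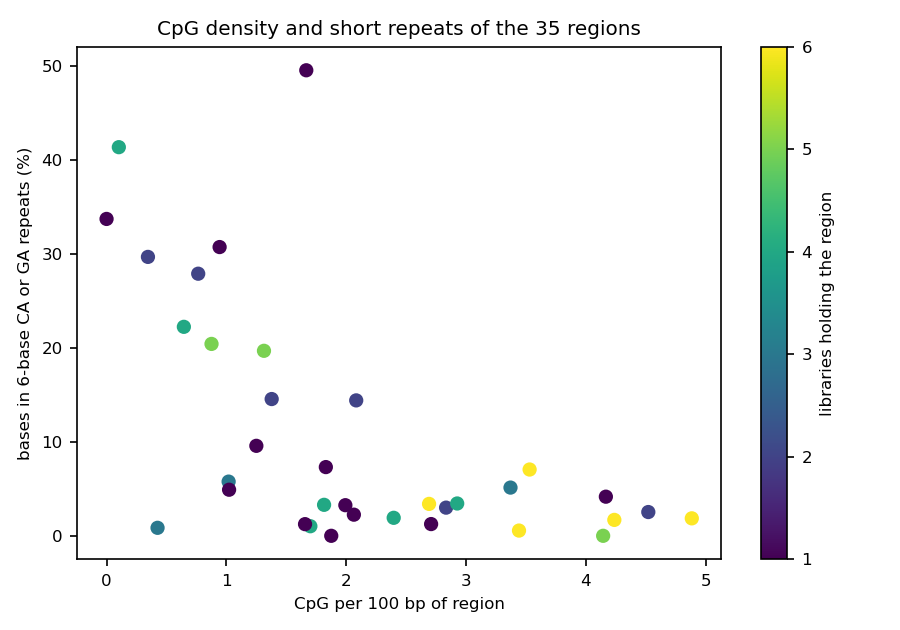
CpG per 100 bp (x axis) against the percentage of bases in ACACAC or AGAGAG on either strand (y axis) for the 35 regions, coloured by the number of libraries with a peak. Regions with 30% or more of such bases have under 2 CpG per 100 bp, and the 5 regions held by all 6 libraries lie at 2.69 CpG per 100 bp or above.

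Peaks were also listed to most of a wider set of genes of the lineage. Of 50 further genes of oligodendrocytes and their progenitors, 40 had a listed peak, against 59.6% of coding reference genes. Of these 40, 27 had a peak in all 6 libraries and 24 had a region held by all 6, against 50.2% and 44.7% of all listed genes. The genes compared were not matched for length or for the distance to neighbouring genes. A promoter peak was present at 4 of the 40, against 11.2% of listed genes: Sox6, a transcription factor of progenitors, in 5 libraries, Cd9, a tetraspanin gene, in 3, and Tcf7l2 and Pllp in 1 each. There was no listed peak at 10 of the 50, among them Omg and Ermn.

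In this wider set, 5 of the 40 genes had more peaks in every ethanol than in every saline library and 0 had fewer, beside the 5.12% and 0.0989% of all genes. They were Mal, a myelin proteolipid gene, with 2, 2 and 2 peaks in ethanol and 1, 1 and 0 in saline libraries, Tspan2, Qk, Nfasc and Ptprz1. Qk, whose product regulates splicing and RNA transport in myelinating cells, had 6, 10 and 6 peaks in ethanol and 1, 3 and 3 in saline libraries. Per 10000 peaks of the list, 4 of these 5 were still higher in every ethanol library, all but Ptprz1, while Enpp6 and Lpar1 were lower, beside the 3.03% and 15.5% of all genes. A region found in all ethanol and no saline libraries was listed to Mal, Nkx2-2, Tcf7l2, Tspan2 and Id4, and 1 found in all saline and no ethanol libraries to Enpp6. Of all listed genes, 5.19% had a region of the first kind and 0.411% one of the second. Genes with many peaks have more regions that could qualify, and Tcf7l2 had 92 peaks and Id4 66 over the 6 libraries.

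Markers of other cell types were set beside these genes. Neuronal markers had peaks at 4 of 6 genes, with 5.33 ± 2.08 peaks in ethanol and 2.67 ± 1.53 in saline libraries, and microglial markers at 4 of 6, with 5.0 ± 1.0 and 4.33 ± 1.15. Astrocyte markers had peaks at 6 of 6 genes, with 8.67 ± 3.06 in ethanol and 5.33 ± 0.577 in saline libraries, and endothelial markers at 6 of 6, with 23.3 ± 7.77 and 18.3 ± 6.66 (SD over 3 libraries). Each list had the higher mean in ethanol libraries, as did the lists of peaks as a whole, and 0 genes of these 4 lists separated the groups by plain count. Per 10000 listed peaks, the microglial gene Cx3cr1 and the endothelial gene Kdr were lower in every ethanol library, beside 15.5% of all genes. Cx3cr1 had 3 peaks in every library, so its lower value came from the longer ethanol lists alone. The part of other cell types in the values of the oligodendrocyte genes was not tested.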

How the data were processed

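MeDIP-seq was done on hippocampal DNA of 6 mice, 3 per treatment. Per the labels, reads were aligned to mm10 with Bowtie (Bowtie2 2.1.0 per the submitters' processing notes) and peaks were called in each library with MACS version 2 at q of 1e-04; an IgG precipitation was done in parallel and is not analysed here. The labels do not say if peak calling used it, so the expected signal beneath each fold enrichment may be that of the control or of the library's own surroundings. Each deposited list gives a summit pileup (a signal not scaled to depth), a fold enrichment (a linear ratio) and -log10 of q, per the file headers and values. The authors' fold and -log10 q describe peaks within a list. Peaks listed to several genes were counted once per library. The smallest -log10 q of a list lay between 5.001 and 5.228, so the lists were cut more strictly than the stated q of 1e-04. The lists hold no library totals, so depth is unknown.

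Peaks sharing at least 1 bp were merged to regions with Python 3.11.15 and pandas 2.3.3. Two-sided exact permutation tests over the 20 divisions of the libraries were run on every gene and every shared region, and were checked on simulated data. CpG content and coordinates are on mm10 and count from 1; sequence came from the RefSeq copy of GRCm38, on whose 21 chromosomes every peak lay within the reference length, and promoter windows from RefSeq (GRCm38.p6), which matched 7 of the 10 genes. The genes and lists were chosen with earlier results of these data known. All 10 genes were named; regions were described where they held a promoter peak, were shared by all libraries, belonged to 1 treatment or lay nearest to a start, and others were added after their values were seen. Alternatives were equal list length, -log10 q of 10 or more, assignment by position, list-length scaling, other overlap rules, leaving out each library, and a block on the replicate number.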

Additional observations from a re-analysis of the deposited data

How the results depend on the processing

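The difference in peaks of these genes between ethanol and saline libraries, 5.33 as reported, was -0.667 with lists of equal length, -0.361 when scaled to the mean list length and 1.67 with peaks assigned by position; it ranged from 3.67 to 8.17 when a library was left out. Assignment by position gave 2 genes with a peak in all 6 libraries in place of 4, and leaving out a library gave 4 to 5. Regions held by all ethanol and no saline libraries numbered 1 at a -log10 q of 10 or more, where the saline peak of the Olig1 region nearest to the start drops out, and 0 to 2 when a library was left out; the opposite pattern numbered 0 to 2. The lists of equal length, assignment by position and the other overlap rules left both counts at 0. The share of all regions that met these patterns in each of these settings was not counted. For single genes, the differences changed sign with lists of equal length at Olig1 (-0.667) and Pdgfra (-1.0), with list-length scaling at Olig1 (-0.577) and Pdgfra (-0.718), and when a library was left out at Mobp (-0.833 to 0.167) and Olig1 (-0.167 to 0.833). For the pileup rank, the far Pdgfra region went to -6.35 by rank of fold, and leaving out a library gave -7.27 to 1.77 at Cspg4, -3.82 to 6.26 at Olig1 and -1.01 to 5.60 at the far Pdgfra region. None of these was past a threshold as reported, and the cause was not tested except where the construction shows it.

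The replicate block on same-numbered animals left the difference at 5.33, and at Mbp gave an exact sign-flip p of 0.25, the smallest that 3 pairs can give. Deviations of same-numbered libraries correlated at -0.164, -0.0259 and -0.00760 over the pileup ranks of shared regions. Those of differently numbered libraries correlated at -0.130 to 0.139. The numbers were not taken to pair the animals, though such values cannot show that no pairing exists. Without read counts, regions under the calling threshold cannot be compared between libraries.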
